A study of Mus musculus with 4 samples.

Results

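The Krt8 transitional state genes are 10 genes, Krt7, Krt8, Krt18, Krt19, Cldn4, Sfn, Lgals3, Itgb6, Plaur and S100a6. They were taken by symbol from the 57010 genes of the count table and followed in every cell with at least 500 genes detected, by cell class, by subset of alveolar type 2 (AT2) cells and by pool of mice. Each symbol stood on 1 gene identifier. AT2 cells make surfactant and serve as progenitors of the flat alveolar type 1 (AT1) cells that line the gas exchange surface. After lung injury, AT2 cells on the way to AT1 cells can pass through a state marked by high Krt8, loss of surfactant genes, and genes of p53 signalling, TGF-beta activation, cell spreading and stress. The 10 genes cover the structural side of that state (simple epithelial keratins), its junctions and cell cycle arrest (Cldn4, Sfn), its contact with matrix and glycans (Itgb6, Lgals3), and its protease receptor and calcium-binding protein (Plaur, S100a6).

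Single-cell RNA was measured by SPLiT-seq (Parse Evercode WT v2), which labels fixed cells by rounds of barcoding in wells, in lung cells of 8-week-old C57Bl6/J mice. The series asks about loss of p73, a p53 family factor encoded by Trp73. Cre_Pos is 1 pool of 6 mice of genotype Shh.Cre+/Flox-p73, in which the p73 flox allele spans E7-E9 and Cre is driven from Shh, a gene active in lung epithelium. Cre_Neg is 1 pool of 6 Shh.Cre- littermates that are homozygous for the same flox allele. Cells were depleted of CD45+ cells, enriched for EpCAM+ cells and sorted as DAPI-negative, so shares of cell types are set partly by these steps, and the mice had no stated injury or treatment. The 2 pools were mixed and split into 4 sublibraries, so sublibraries are technical aliquots of the same pools and not animals. There is therefore no test between genotypes. The 95% intervals given cover counting error alone.

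Of 647296 barcodes, 16579 had at least 500 genes, and 16356 were kept, 7696 of Cre_Neg and 8660 of Cre_Pos, with a median of 8713.5 and 8219 UMIs (unique molecules counted). The study states 20000 cells pooled between both conditions. Among the kept barcodes, 574 carried a well combination that also occurred in another sublibrary, and the sublibrary suffix kept them apart. Trp73 held 6890 UMIs in the Cre_Neg pool and 1023 in the Cre_Pos pool, nearly all in ciliated-like and deuterosomal-like cells. Those pools held 1201 and 120 ciliated-like cells. Of these, 177 and 101 had Y-linked UMIs and no Xist, and 882 and 3 had Xist and no Y-linked UMIs. Over all kept Cre_Pos cells these numbers were 528 and 7108, so its ciliated-like cells differ in sex from their pool. Within ciliated-like cells the Trp73 level was 334 counts per 1000000 UMIs (CPM) in Cre_Neg and 312 CPM in Cre_Pos. These counts are over the whole gene and check nothing about a deletion inside it. In transitional-like cells Trp73 had 0 UMIs in both pools, and in AT2-like cells it had 3 and 5.

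Cell classes were rebuilt from clusters made without the 10 genes, and a class is called "-like" because its name rests on markers. The 163 transitional-like cells (70 of Cre_Neg, 93 of Cre_Pos) are 1 cluster with 11 of 16 transitional markers, led by Ndnf, Ano1, Cldn18, Itgb6 and Gprc5a. The same cluster also passed 8 of 10 AT2 markers, and it took its name from its leading genes by a rule added after the clusters were seen. All 8 basal and all 8 neutrophil markers had no UMI there in either pool, and B cell markers summed to 2.53 CPM in Cre_Neg and 0.752 CPM in Cre_Pos. Other lists were not near 0: in Cre_Neg and Cre_Pos, alveolar fibroblast markers summed to 668 and 491 CPM, general capillary endothelium markers to 482 and 346 CPM, group 2 innate lymphoid markers to 663 and 558 CPM and tuft cell markers to 468 and 371 CPM. Of those lists, 3 of 8, 0 of 8, 4 of 6 and 5 of 7 genes had no UMI in Cre_Neg. Their part in the results was not tested. AT2-like cells numbered 3360 in clusters 1, 2 and 3. A further cluster of 416 cells (unnamed cluster 5), led by Scgb1a1, Cyp2f2, Cbr2, Sftpa1 and Hp, joined club cell and AT2 genes and stayed unnamed. AT1-like cells numbered 51.

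Summed over the 10 genes, the level was 3353 CPM in transitional-like cells (95% interval 3276 to 3432) and 357 CPM in AT2-like cells (352 to 363), a 9.38-fold difference (9.12 to 9.65). Across the 4 sublibraries of each pool the fold ran from 5.64 to 13.7, higher in all 8. All 10 genes were at least 2-fold higher in transitional-like than in AT2-like cells, where 19.3% of the 15098 genes with at least 20 UMIs were. The median log2 ratio of the 10 genes was 3.56, beside 0.28 over all those genes. Scaling on the median gene instead of total UMIs lowers each log2 ratio by 0.24. AT1-like cells came next in the order of classes at 2400 CPM, and neutrophil-like cells, unnamed cluster 5 and secretory-like cells followed with 1217, 1051 and 999.5 CPM, values whose intervals overlap from each to the next. Blood endothelium-like cells held 65.4 CPM. Against unnamed cluster 5, transitional-like cells were at least 2-fold higher for 9 of the 10 genes, where 10.5% of 12303 genes were, and Krt19 differed by 0.23.

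**Figure D1:**
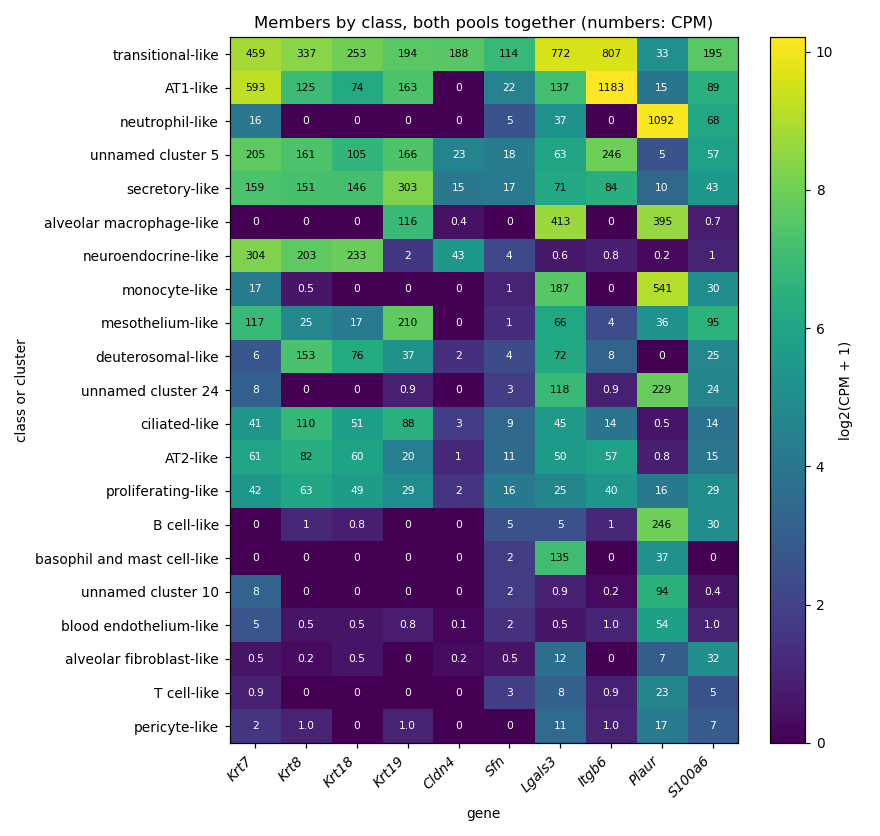
Level of the 10 genes (columns) in 21 classes and clusters (rows, ordered by the summed level), both pools together; colour is log2(CPM + 1) and the printed numbers are CPM. The top row, transitional-like cells, holds all 10 genes, whereas neutrophil-like cells hold mostly Plaur (1092 CPM), and neuroendocrine-like cells hold Krt7, Krt8 and Krt18 but 0.6 CPM of Lgals3.

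Krt8 and Krt18 encode the type II and type I keratins that pair in filaments of simple epithelia, and they lie 23698 bases apart on chromosome 15. Krt8 in transitional-like cells was 235, 315, 394 and 165 CPM in Cre_Neg sublibraries 1 to 4 and 338, 391, 342 and 350 CPM in Cre_Pos. In AT2-like cells it was 76.3, 80.3, 66.4 and 82.3 CPM in Cre_Neg and 86.5, 78.9, 95.1 and 100.1 CPM in Cre_Pos. Every transitional-like value lay above every AT2-like value. The difference over both pools was 2.03 on the log2 scale (1.91 to 2.15). Krt18 differed by 2.07 (1.94 to 2.21), from 60.3 CPM in AT2-like to 253 CPM in transitional-like cells. Krt8 was highest in transitional-like cells, ahead of neuroendocrine-like cells at 203 CPM. The intervals of Krt18 in these 2 classes overlapped, at 253 and 233 CPM. Ciliated-like cells held 110 CPM of Krt8 and deuterosomal-like cells 153 CPM, so the pair also marks epithelium outside the alveoli.

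Krt7 and Krt19 are simple epithelial keratins of ducts and airways, and they followed other orders. Krt7 was 459 CPM in transitional-like and 60.7 CPM in AT2-like cells (log2 2.92, 2.81 to 3.02), but AT1-like cells stood higher at 593 CPM. Neuroendocrine-like cells held 304 CPM of Krt7 and 2.06 CPM of Krt19. Krt19 was 194 CPM in transitional-like and 20.0 CPM in AT2-like cells (log2 3.28, 3.11 to 3.45), and secretory-like cells stood above both at 303 CPM. Mesothelium-like cells at 210 CPM of Krt19 overlapped the transitional-like interval. Of 11 keratin genes outside the 10, only 3 had at least 20 UMIs in the comparison of transitional-like with AT2-like cells: Krt80 was higher by 2.27 and Krt10 and Krt23 differed by -0.74 and -0.21. The annotation (GENCODE M21) places an antisense gene, Gm671, over Krt7 and Gm36026 on the strand opposite Krt8. The sources used here do not state whether counting used strand, so reads of these pairs may not be told apart. Gm671 stood at 45.1 to 60.1 CPM across the 3 AT2 clusters and 50.5 CPM in transitional-like cells, and Gm36026 had 42 UMIs in all kept cells.

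Cldn4 encodes a tight junction claudin, and Sfn encodes 14-3-3 sigma, a p53-induced protein that holds cells before mitosis. Cldn4 in transitional-like cells was 195, 83.2, 185 and 69.3 CPM in the Cre_Neg sublibraries and 346, 157, 155 and 248 CPM in the Cre_Pos sublibraries. In AT2-like cells it was between 0 and 2.81 CPM in all 8. The log2 difference of 7.33 (6.91 to 7.78) rests on 399 UMIs against 52. Neuroendocrine-like cells came next at 43.0 CPM. AT1-like cells had 0 Cldn4 UMIs, which allows up to 4.37 CPM, so transitional-like cells were at least 43.1-fold higher. Sfn was 114 CPM in transitional-like and 10.5 CPM in AT2-like cells (log2 3.44, 3.21 to 3.67), and AT1-like cells came next at 21.8 CPM among the 21 classes with at least 50 cells. The 33 plasma cell-like cells, below that size, held 50.1 CPM on 22 UMIs. Of 11 other tight junction genes with at least 20 UMIs, 5 were at least 2-fold higher in transitional-like cells and none lower, with Ocln at 2.02 and Cgn at 1.70 on the log2 scale.

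Lgals3 encodes galectin-3, a lectin that binds cell surface glycans, and Itgb6 encodes the beta subunit of the integrin that releases active TGF-beta from its latent form. Lgals3 was 772 CPM in transitional-like cells and 49.6 CPM in AT2-like cells (log2 3.96, 3.87 to 4.05). Alveolar macrophage-like cells, a known source of galectin-3, held 413 CPM of it. In transitional-like cells, 8 of 10 alveolar macrophage markers in Cre_Neg and 6 of 10 in Cre_Pos had no UMI, and the list summed to 41.8 and 21.0 CPM. Itgb6 was 835, 559, 842 and 416 CPM in the Cre_Neg sublibraries of transitional-like cells and 1038, 733, 919 and 885 CPM in the Cre_Pos sublibraries. In AT2-like cells it was 45.5 to 63.8 CPM over all 8. AT1-like cells exceeded both, at 1183 CPM.

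Plaur encodes the urokinase receptor, which gathers plasmin-forming protease at the cell edge, and S100a6 encodes a calcium-binding protein of growing cells. Plaur was highest in myeloid classes, at 1092 CPM in neutrophil-like, 541 CPM in monocyte-like and 395 CPM in alveolar macrophage-like cells, and B cell-like cells held 246 CPM. Blood endothelium-like cells, the most numerous class, held 53.9 CPM and 3193 of the 7175 Plaur UMIs. Transitional-like cells held 33.5 CPM (71 UMIs) and ranked 10 of 21 classes, while AT2-like cells held 0.787 CPM (35 UMIs). That log2 difference was 5.41 (4.81 to 6.04). Barcodes with at most 50 UMIs, taken as free RNA, held 42.5 CPM of Plaur in Cre_Neg and 46.5 CPM in Cre_Pos, above both epithelial values. Blood endothelium-like cells, with a median of 6608 UMIs, had a Plaur UMI in 22.9% of cells, transitional-like cells (median 11955) in 25.8% and AT2-like cells (median 12446) in 0.774%. After each cell was thinned to 2000 UMIs, these shares were 8.72%, 7.64% and 0.152%. S100a6 was 195 CPM in transitional-like and 15.1 CPM in AT2-like cells (log2 3.69, 3.51 to 3.87), with mesothelium-like cells at 95.4 CPM next.

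Promoter windows were available for 9 of the 10 genes (250 bases before the start, RefSeq, GRCm38.p6). The motifs searched on both strands were the AP-1 site TGANTCA, the GC box GGGCGG, the TEAD site GGAATG, the TATA box TATAAA, and the p53 family half-site. The AP-1 letters were in 2 members' windows, Cldn4 and Plaur, and in 6.73% of 32536 promoters of the same length. These members have the highest ratios of transitional-like over AT2-like cells, and their windows were chosen for printing after the matches were seen. The GC box was in 4 members' windows (Cldn4, Krt7, Lgals3 and Plaur) and in 33.0% of all promoters. The other motifs were in none of the members' windows; they were in 12.6%, 12.3% and 7.12% of all promoters for the TEAD site, TATA box and half-site. In both sequences below, capitals mark AP-1 and GC box letters, the GC box of Cldn4 stands on the other strand, and 3 GC boxes overlap or adjoin each other in Plaur. The Cldn4 window is chr5:134946935-134947184 on the minus strand and the Plaur window is chr7:24462233-24462482 on the plus strand, both shown 5′ to 3′ on the strand of the gene.
Cldn4: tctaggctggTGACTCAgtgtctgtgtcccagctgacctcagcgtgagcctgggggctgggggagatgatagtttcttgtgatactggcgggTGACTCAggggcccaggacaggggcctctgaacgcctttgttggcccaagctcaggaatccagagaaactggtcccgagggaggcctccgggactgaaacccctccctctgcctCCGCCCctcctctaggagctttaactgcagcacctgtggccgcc
Plaur: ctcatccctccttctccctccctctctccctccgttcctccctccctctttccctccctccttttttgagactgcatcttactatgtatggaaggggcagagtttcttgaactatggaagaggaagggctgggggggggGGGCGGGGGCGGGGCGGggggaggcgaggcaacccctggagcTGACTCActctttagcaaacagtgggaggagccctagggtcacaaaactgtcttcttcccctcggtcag
A match is a description of letters and was not tested as a binding site.

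Within AT2-like cells the 10 genes formed a gradient. Their summed level was 159 CPM in cluster 3, 260 CPM in cluster 1 and 685 CPM in cluster 2. In free RNA the 10 genes summed to 258.0 CPM in Cre_Neg and 248.9 CPM in Cre_Pos. Both values lay above cluster 3 and near cluster 1, and the part of free RNA in the cluster levels was not tested. Cluster 3 had the most Acoxl (2267 CPM) and Lyz1 (1319 CPM), and cluster 2 had the most Ndnf (814 CPM) and Areg (239 CPM), genes chosen after their values were seen. All 10 genes were at least 2-fold higher in cluster 2 than in cluster 3, against 5.65% of 13932 genes, and at least 2-fold higher in cluster 2 than in cluster 1, against 3.41% of 13952 genes. Among genes with UMIs in both clusters, S100a6 had the widest gap: 589 UMIs in cluster 2 and 6 in cluster 3 (log2 6.74, 5.61 to 8.19). By sublibrary, S100a6 in cluster 3 was 0 to 0.876 CPM in Cre_Neg and 0 to 1.01 CPM in Cre_Pos, and in cluster 2 it was 28.1 to 54.7 and 26.4 to 56.1 CPM. Cldn4 had 44 UMIs in cluster 2 and 0 in cluster 3, at least 16.0-fold higher. Krt8 was 41.2, 67.4 and 145 CPM in clusters 3, 1 and 2.

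Cluster 2 still stood below transitional-like cells for every gene. All 10 genes were at least 2-fold higher in transitional-like cells than in cluster 2, against 12.2% of 12931 genes, from Krt8 at 1.22 to Cldn4 at 5.88 on the log2 scale. The AT2 identity genes moved the other way along the gradient. All 10 were lower in cluster 2 than in cluster 3, with a median of -0.46. The share of all genes lower in that comparison is not given here. All 10 were also lower in transitional-like than in AT2-like cells, with a median of -3.37. AT2 markers were also used to name the AT2-like class, so this direction is not fully independent of the naming. AT1-like cells did not extend the gradient for every gene. Against them, transitional-like cells were at least 2-fold higher for 7 of the 10 genes, where 27.9% of 9445 genes were, and lower for Krt7 by -0.37 (-0.54 to -0.20) and Itgb6 by -0.55 (-0.67 to -0.43). Since clusters were cut from other genes of the same cells, these differences between clusters are descriptions.

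**Figure D2:**
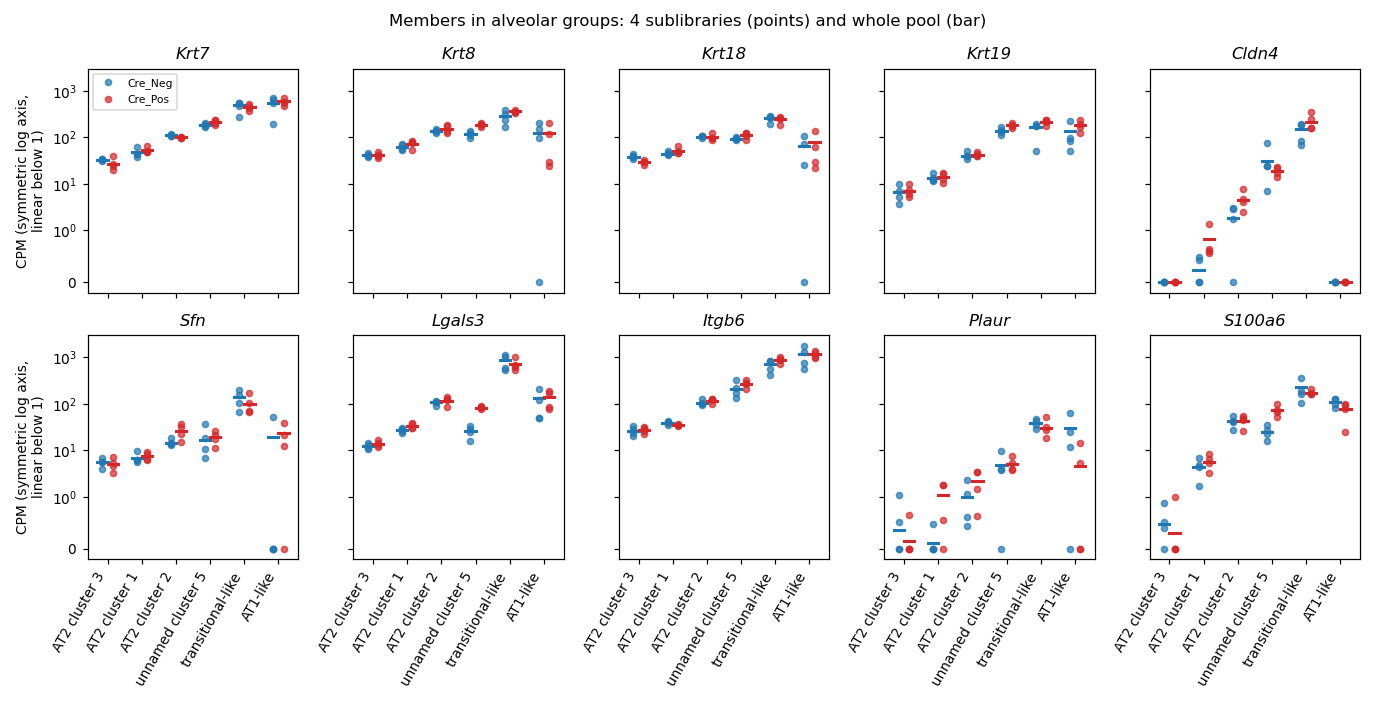
CPM of each gene in 6 alveolar groups (x axis), as points for the 4 sublibraries and bars for the whole pool, Cre_Neg in blue and Cre_Pos in red; the y axis is a symmetric log scale, linear below 1. From AT2 cluster 3 through cluster 1 to cluster 2 every gene rises in both pools except Plaur in Cre_Neg, which is lowest in cluster 1, and AT1-like cells match or exceed transitional-like cells for Krt7 and Itgb6 but hold no Cldn4. The AT1-like points rest on 3 to 12 cells each.

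Single cells were also counted by how many of the 10 genes they held. Whether the genes share cells more often than their levels alone would give was not tested. After thinning each cell to 2000 UMIs, at least 3 of the 10 genes were present in 68.8% of 157 transitional-like cells (exact binomial interval 60.9 to 75.9%), in 3.78% of 3284 AT2-like cells and in 27.5% of 51 AT1-like cells. The unthinned shares were 93.9%, 40.9% and 98.0%. Within AT2-like cells the thinned share was 0.287% in cluster 3, 1.45% in cluster 1 and 10.3% in cluster 2. It was 0.0258% in 7741 blood endothelium-like cells and 0 of 386 B cell-like cells. The thinned share in transitional-like cells was 69.1% in Cre_Neg and 68.5% in Cre_Pos, and each share lies inside the interval of the other. Thinning left out 6 transitional-like and 76 AT2-like cells with fewer UMIs.

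**Figure D3:**
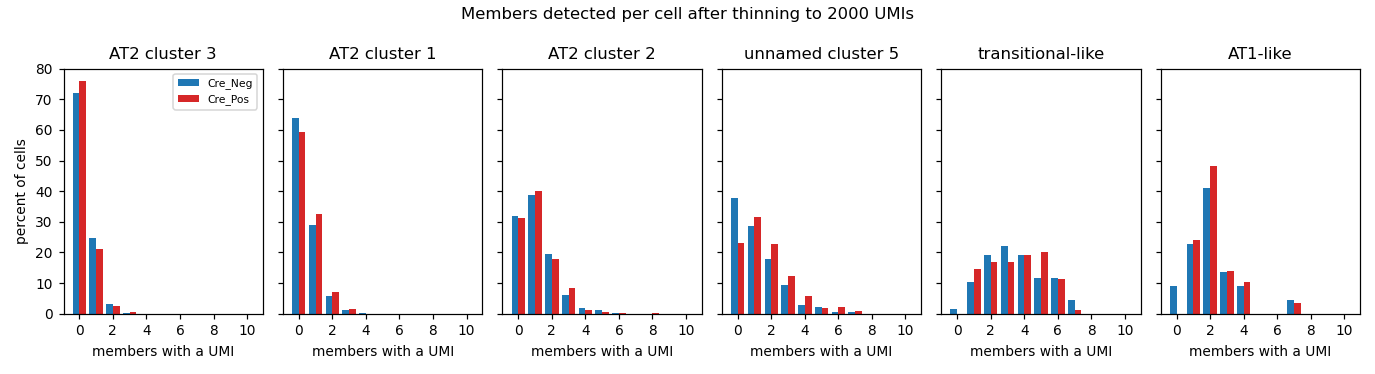
Percent of cells (y axis) by the number of the 10 genes with a UMI after thinning to 2000 UMIs (x axis), for 6 alveolar groups and both pools. AT2 cluster 3 sits mostly at 0 genes, cluster 2 at 0 to 2, and transitional-like cells spread from 1 to 6, in both pools.

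Over the 21 classes with at least 50 cells, the gene whose log2(CPM + 10) most resembled that of Krt8, among 13133 genes with at least 500 UMIs, was Dsp (Pearson r 0.98), which encodes the desmosomal plaque protein desmoplakin. It was followed by Marveld3, Fam83b, Nlrp4e, Spint2, Pkp2, Ap1m2, Cdcp1, Foxa2 and Esrp1, with r from 0.96 to 0.98. Among the 10 genes themselves, Krt8 and Krt18 had r of 0.99, Itgb6 and Sfn 0.88, and Krt8 and Plaur -0.66. The classes share libraries and differ in depth, and these values describe 21 points.

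Other genes of the same biology were compared between transitional-like and AT2-like cells, using lists described by counts and by their median. Of all 15098 genes measured, 9674 were higher by the same count. Of 25 other transitional state genes, 23 had at least 20 UMIs and all were higher, with a median log2 ratio of 2.42. Fn1 (6.58) and Fosl1 (6.41), a subunit of AP-1, were highest, and Lamb3 (0.67) and Tpm1 (1.31) were lowest. This list holds the markers used to name the class, so its direction is not independent evidence. All 13 measured p53 target genes were higher (median 2.09), led by Phlda3 at 4.39 and Gdf15, a secreted stress factor, at 3.67. The marker set used to name the class holds Phlda3 and Gdf15, and also Cdkn1a and Mdm2. The p53 list is therefore not fully independent of the naming. All 13 measured TGF-beta genes were higher (median 1.47), with Tgfb2 at 4.30 and Ccn2, a matricellular target, at 3.98 above Tgfb3 at 0.06 and Tgfbi at 0.11, which lie under the median of 0.28 over all genes. Of 12 integrated stress response genes, 11 were higher (median 1.93), with the cystine transporter Slc7a11 at 7.58 and the glutathione-degrading Chac1 at 6.25, and Vldlr was lower at -1.51. Of 11 measured AT1 identity genes, 10 were higher (median 1.58), with Rtkn2 at 3.35 and Clic5 at 2.98, and Ager was at -0.22.

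Between the pools, the summed level in AT2-like cells was 349, 350, 300 and 355 CPM in the Cre_Neg sublibraries and 382, 347, 406 and 391 CPM in Cre_Pos. The Cre_Pos value of sublibrary 2 lies within the Cre_Neg range. Over the whole pools it was 339 against 379 CPM, a log2 ratio of 0.16 (0.12 to 0.21), and 0.08 without sublibrary 3. All 10 genes had ratios above 0, the lowest being Krt7 at 0.00, as did 7753 of 14876 genes, and 2 of 10 were at least 2-fold higher in Cre_Pos, where 1.13% of 14876 genes were. Those were Cldn4, with 15 UMIs in Cre_Neg and 37 in Cre_Pos (log2 1.53, 0.63 to 2.50), and Plaur, with 11 and 24 UMIs (1.35, 0.27 to 2.53). After thinning, on 5 UMIs each, these ratios turned to -0.068 and -1.48, and Cldn4 fell below 2-fold with the 500-gene limit alone (0.83) and at Leiden resolution 2 (0.88). Neither is among the 11548 genes with at least 100 UMIs, of which 0.165% were as high. Free RNA held 4.33 CPM of Cldn4 in Cre_Neg and 4.55 CPM in Cre_Pos, above its 0.625 and 1.81 CPM in AT2-like cells. Sfn was 8.67 against 12.7 CPM (0.55, 0.28 to 0.82), higher in 3 of 4 sublibraries, and Krt8 was 76.4 against 89.4 CPM (0.23, 0.13 to 0.32). Krt19 and Cldn4 were the members whose sublibrary values did not overlap between the pools, at 17.9 to 20.6 against 20.7 to 22.9 CPM for Krt19. The share of all genes without such overlap is not given here, for this or any other class. The Krt19 pool ratio was 0.18 (-0.01 to 0.38), and free RNA held 24.4 CPM of Krt19 in Cre_Neg and 20.2 CPM in Cre_Pos. Krt7 and Krt18 differed by 0.00 and 0.03, with intervals from -0.11 to 0.11 and -0.08 to 0.14.

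The mix of AT2 subsets differed alongside. Cluster 2 made up 27.5% of AT2-like cells in Cre_Neg (exact binomial interval 25.5 to 29.5%) and 33.4% in Cre_Pos (30.9 to 36.0%). Within clusters the summed ratio was 0.17 in cluster 1 (0.08 to 0.26), 0.09 in cluster 2 (0.03 to 0.14) and -0.11 in cluster 3 (-0.23 to 0.01). Sex differed too: cells with Y-linked UMIs and no Xist numbered 369 in Cre_Neg and 139 in Cre_Pos. The summed ratio was 0.32 (0.20 to 0.44) among those and 0.14 (0.08 to 0.19) among cells with Xist and no Y-linked UMIs. The part of subset mix and of sex in the pooled value was not tested. With 1 pool per genotype, genotype and pool cannot be told apart.

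In transitional-like cells the summed level was 3706, 2662, 4114 and 2002 CPM in the Cre_Neg sublibraries and 3638, 3158, 3209 and 3565 CPM in Cre_Pos. The Cre_Pos values lay inside the Cre_Neg range, and the log2 ratio was -0.01 (-0.08 to 0.06). None of the 10 genes differed by 2-fold, where 7.16% of 8738 genes did. Krt19 was 178, 172, 197 and 52.0 CPM in Cre_Neg and 236, 211, 234 and 171 CPM in Cre_Pos, higher in each of the 4 sublibraries (0.36, 0.06 to 0.67), and Itgb6 was likewise higher in all 4 (0.26, 0.12 to 0.41). Sfn was lower over the pool by -0.54 (-0.91 to -0.16), but in only 2 of 4 sublibraries, and Lgals3 by -0.34 (-0.48 to -0.19), also in 2 of 4. With the 500-gene limit alone Sfn was 0.093 and Lgals3 0.016, and with the members kept in the clustering Lgals3 was 0.13. S100a6 was lower over the pool by -0.38 (-0.67 to -0.09) although it was higher in 3 of 4 sublibraries, and without sublibrary 3 its ratio was 0.12. These sublibraries hold 11 to 31 cells each. The class made up 0.910% of the Cre_Neg pool and 1.07% of the Cre_Pos pool, as 70 and 93 cells, but with the 500-gene limit alone it held 153 and 178 cells. Of 12 integrated stress response genes, 9 were lower in Cre_Pos with a median of -0.72 (Slc7a11 -1.69, Chac1 -1.46). Of 13 p53 target genes, 10 were lower with a median of -0.45. The median over all genes measured was -0.03, so more genes were lower than higher there too. Intervals, sublibrary values and alternative runs of these 2 lists are not given here, and their difference between pools was not tested.

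Unnamed cluster 5, singled out after its values were seen, held pool differences in several members on many UMIs. Other classes had wider ratios on fewer UMIs: Krt19 in blood endothelium-like cells was -2.63 (33 UMIs in Cre_Neg, 13 in Cre_Pos), and S100a6 in B cell-like cells was -2.53 (66 and 9 UMIs), the latter without overlap over sublibraries. Lgals3 was 24.5, 33.3, 28.4 and 15.7 CPM in the Cre_Neg sublibraries and 87.9, 81.3, 85.9 and 76.5 CPM in Cre_Pos, which do not overlap (log2 1.66, 1.27 to 2.06). S100a6 was 34.7, 27.4, 22.7 and 15.7 CPM in Cre_Neg and 75.3, 100.6, 65.6 and 52.0 CPM in Cre_Pos, again without overlap (1.57, 1.17 to 1.99). Both were at least 2-fold higher in Cre_Pos, 2 of 10 genes against 5.81% of 11710. The values of S100a6 and Lgals3 depend on how cells are weighted: as a mean of per-cell CPM they were 1.13 and 1.16, and after thinning S100a6 was 0.45. Krt8, at 96.4 to 135 CPM in Cre_Neg, was 166 to 202 CPM in Cre_Pos with no overlap (0.67, 0.47 to 0.87). How many of all genes lack overlap in this cluster is not given here, so the lack of overlap does not set these members apart. Cldn4 went the other way at -0.67 (-1.14 to -0.20), but with 75.5 CPM in Cre_Neg sublibrary 1 and 6.97 CPM in sublibrary 4.

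The summed level there was 841 against 1165 CPM (0.47, 0.40 to 0.54). Summed marker levels of the cluster differed between the pools too, and a different mix of cells and a different level per cell cannot be told apart from them. Secretory markers summed to 22697 CPM in Cre_Neg and 12253 CPM in Cre_Pos, AT2 markers to 7052 and 11032 CPM, and transitional markers to 1046 and 1832 CPM. Among cells with Xist and no Y-linked UMIs the summed ratio was 0.69 (0.60 to 0.77), and among the 15 and 44 cells with Y-linked UMIs and no Xist it was -0.81 (-0.998 to -0.61). The part of these differences in the members' ratios was not tested. At least 3 of the 10 genes were present after thinning in 15.7% of Cre_Neg cells of the cluster (10.6 to 22.01%) and in 22.7% of Cre_Pos cells (17.4 to 28.7%), intervals that overlap.

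**Figure D4:**
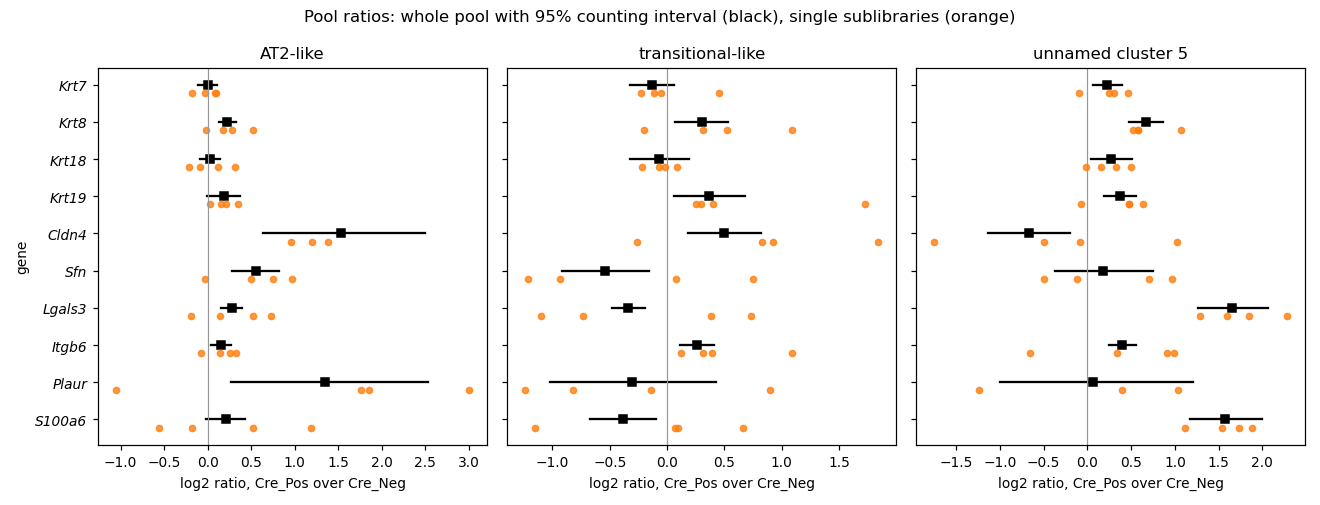
Log2 ratio of Cre_Pos over Cre_Neg (x axis) for each gene (y axis) in AT2-like cells, transitional-like cells and unnamed cluster 5; black squares with lines are whole pools with 95% counting intervals and orange points are single sublibraries, left out where a pool has 0 UMIs. In transitional-like cells the genes lie on both sides of 0, and in unnamed cluster 5 Lgals3 (1.66) and S100a6 (1.57) stand apart from the other genes.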

How the data were processed

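The authors deposited raw UMI counts per gene and barcode (SPLiT-seq, 4 sublibraries holding both pools), with a barcode table that names the pool and a gene table labelled mm10; the submitters' processing notes name GRCm39, and the sources used here do not name the aligner. Barcode wells matched the stated pool for all 647296 barcodes. 1 deposited column of per-barcode values was not used.

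Barcodes with 500 or more genes and no more than 15% mitochondrial UMIs were taken as cells; 185 doublets called by Scrublet (1.12%) were then removed. Scanpy 1.11.5 clustered 3000 variable genes, the 10 genes left out (30 components, 15 neighbours, Leiden resolution 1), into 32 clusters. A cluster was named from 33 marker sets. By marker share alone the transitional-like cluster and unnamed cluster 5 were both AT2-like; a rule on the 10 leading genes, added after seeing this, renamed the first and left the second unnamed. Each gene's counts were added up within a class and scaled to CPM by its total UMIs. Intervals are exact Poisson for levels, exact conditional binomial for ratios and exact binomial for shares, at 95%; where a group had 0 UMIs, 3 counts over that group stood in as the floor. No p-value was computed, because each genotype is 1 pool. The ratio and naming scripts were tested on simulated data.

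All members are described; of each list the 2 highest and 2 lowest genes were eligible for naming, and the 10 genes most like Krt8 were named. The members and lists were chosen with earlier results of these data known. Promoter sequences are RefSeq, GRCm38.p6, and gene positions GENCODE M21 on GRCm38. Alternatives were without each sublibrary in turn, 500 genes alone, 1000 genes, resolution 2, members kept in the clustering, thinning, median ratio scaling, equal cell weight, each sex, other UMI filters and 1 added count.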

Additional observations from a re-analysis of the deposited data

Results flagged for a closer look

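In 6 of 92 groups of 4 sublibraries, 1 sublibrary stood apart from the other 3 by more than Dixon's 95% limit of 0.829; chance flags about 5% of such groups. Krt18 in neuroendocrine-like cells was 322 CPM in Cre_Pos sublibrary 4, with the others at 208 to 216 CPM, and the 10 genes summed there to 961 CPM against 766 to 780 CPM. Krt19 was 22.9 CPM in AT2-like cells of Cre_Pos sublibrary 3 against 20.7 to 20.9 CPM. In Cre_Neg sublibrary 4, Krt19 was low in transitional-like cells, at 52.0 CPM against 172 to 197 CPM, and in ciliated-like cells, at 80.4 CPM against 89.1 to 90.2 CPM. The 10 genes summed to 300.3 CPM in AT2-like cells of Cre_Neg sublibrary 3, below the 349 to 355 CPM of the others. No explanation was tested.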

How the results depend on the processing

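The 9.38-fold higher summed level of transitional-like over AT2-like cells stayed above 1 under every alternative run, and moved by more than the SD over sublibraries under 4 of them: 7.11 with the 500-gene limit alone, 7.20 with the members kept in the clustering, 8.15 at Leiden resolution 2 and 7.95 with median ratio scaling. In the alternative clusterings, classes were matched by majority overlap, a choice made after seeing the data. Leaving out each sublibrary gave 9.03 to 9.71 for this fold, 0.08 to 0.24 for the log2 pool ratio in AT2-like cells, -0.13 to 0.17 in transitional-like cells and 0.40 to 0.56 in unnamed cluster 5. The summed ratio in unnamed cluster 5 reversed to -0.81 in cells with Y-linked UMIs and no Xist. The alternatives for that cluster and the median of the members were added after seeing the data.

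Single genes reversed in 11 cases. After thinning, Cldn4 and Plaur in AT2-like cells were -0.068 and -1.48, on 5 UMIs each. Leaving out each sublibrary gave -0.54 to 0.12 for S100a6 in transitional-like cells, the highest without sublibrary 3. In cells with Y-linked UMIs and no Xist, Sfn in AT2-like cells was -0.18, and Krt7 and Itgb6 in unnamed cluster 5 were -1.13 and -1.83; with Xist alone, Cldn4 there was 0.0531. With 500 genes alone, which put 153 Cre_Neg cells in the class, Sfn and Lgals3 in transitional-like cells were 0.093 and 0.016, and with the members kept in the clustering Lgals3 and S100a6 were 0.13 and 0.11. The cause was not tested. The Cldn4 ratio in AT2-like cells fell to 0.83 with 500 genes alone and 0.88 at resolution 2. Genes past 2-fold between pools in AT2-like cells were 0.32% with at least 100 UMIs and 21.9% with no filter, in transitional-like cells 1.44% and 24.4%. With the members kept in the clustering, transitional-like cells ranked 2 for Krt18 and 5 for Krt19, in place of 1 and 3. No paired analysis was possible because the results come from no test: each genotype is 1 pool.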
